A study of Mus musculus with 2 samples.

Results

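This account concerns 10 genes of the tumor necrosis factor (TNF) superfamily, taken by symbol from the 31053 genes listed in 2 single-cell libraries of tumor leukocytes. The ligands are *Fasl*, *Tnfsf10* (TRAIL), *Tnfsf9* (4-1BBL), *Tnfsf12* (TWEAK), *Tnfsf13b* (BAFF) and *Tnfsf14* (LIGHT), and the receptors are *Fas*, *Tnfrsf10b* (the TRAIL receptor), *Tnfrsf1a* and *Tnfrsf1b* (the TNF receptors). Both libraries came from live CD45+ cells sorted on day 4 from *Ptgs*-/- melanomas in C57BL/6 hosts aged 8 weeks. The tumor cells were a *Braf*-driven mouse melanoma line in which both cyclooxygenase genes had been targeted by CRISPR. Control hosts were untreated. NK cell-depleted hosts received 200 µg of anti-NK1.1 (clone PK136) and 30 µg of antibody against asialo GM1 on days 0 and 2. The sample titles mark both samples as knockout, whereas the genotype entry of both names wildtype tumor cells, a conflict that touches the groups alike. Tumors of a group were pooled, so each group is 1 library, no difference has a replicate check and none was tested.

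Members of the TNF superfamily are mostly membrane-bound or shed trimers that cluster their receptors. Receptors with a death domain (*Fas*, *Tnfrsf10b* and *Tnfrsf1a*) can recruit adaptor proteins and caspase 8 and kill the cell that bears them. The other receptors bind TRAF adaptors and chiefly signal survival, activation or cytokine production. NK cells and cytotoxic T cells use FasL and TRAIL next to their granules to kill tumor cells, and 4-1BBL and LIGHT on antigen-presenting cells costimulate lymphocytes.

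Cells with at least 500 UMIs (distinct transcript molecules), at least 200 genes and at most 10% mitochondrial UMIs were kept. These were 5504 of 6115 control cells with 30836363 UMIs and 4859 of 5536 NK cell-depleted cells with 33055233 UMIs, with medians of 4318 and 5156 UMIs per cell. Only 5 barcodes were shared. Classes were named from marker genes, and the cDC2-like class was mixed. When its cells were called one by one, 469 were like type 2 and 82 like type 1 conventional dendritic cells. Another 20 were like plasmacytoid dendritic cells, 22 were monocyte/macrophage-like and 132 had no call. The NK-like class held 545 control cells and 1 NK cell-depleted cell, and *Klrb1c*, which encodes NK1.1, had 952 and 15 UMIs. Melanoma-like cells numbered 173 and 315 and carried 14.4% and 24.5% of the UMIs. Such cells lie outside a CD45 sort, and unedited parental melanoma cells had been added to both samples. The melanoma-like class was 3.14% and 6.48% of the cells, and added cells were not told apart from tumor cells in it. *Ptprc*, the gene of CD45, was at 22.7 and 20.01 CPM in them and at 983 and 833 CPM in all cells. *Ptgs2* was detected in melanoma-like cells at 519 and 781 CPM and *Ptgs1* at 19.1 and 16.8 CPM. Counts of 3′ ends do not check a CRISPR edit, and the position of the edits was not used here. Levels are given in CPM, UMIs per 1000000 UMIs of the class in that library, and ratios are control over NK cell-depleted. Intervals are 95% and cover counting error only.

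**Figure D1:**
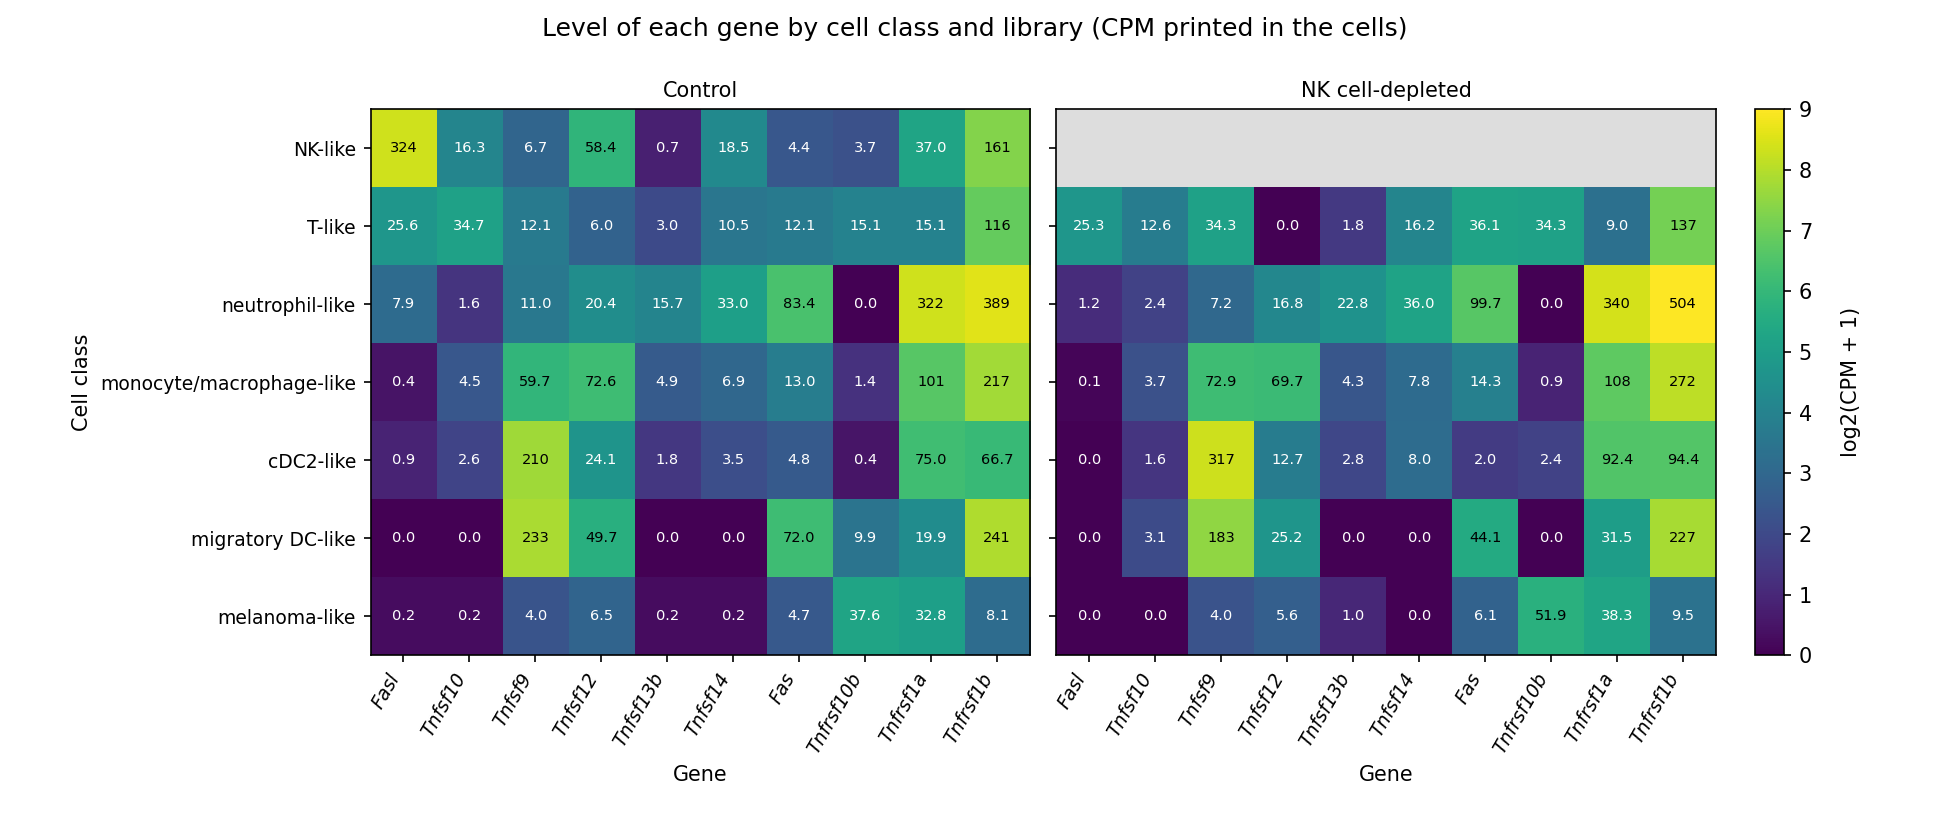
Level of each gene by cell class in the control library (left) and the NK cell-depleted library (right). Color is log2(CPM + 1), CPM is printed in each cell, and gray marks a class with under 50 cells. *Fasl* stands at 324 CPM in NK-like cells and *Tnfrsf10b* at 37.6 and 51.9 CPM in melanoma-like cells.

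*Fasl* was mainly an NK cell transcript. In the control library 438 of 494 *Fasl* UMIs lay in NK-like cells, a share of 88.7% (85.5 to 91.3), although these cells were 9.90% of the cells and held 4.38% of all UMIs. The level was 324 CPM (294 to 356) in NK-like cells, and 50.6% of them had a *Fasl* UMI at a median of 2137 UMIs per cell. The share in monocyte/macrophage-like cells, which should lack the gene, was 0.226% at a median of 5101 UMIs. When cells were thinned to 2000 UMIs, the NK-like share was 42.6% of 303 cells, and the 242 shallower cells were left out. The count was spread over the class, since the 5 cells with the most *Fasl* held 5.71% of its UMIs. No cell of the melanoma-like class in the NK cell-depleted library had a *Fasl* UMI, which allows up to 0.371 CPM.

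Over all cells *Fasl* was at 16.02 CPM (494 UMIs) in the control library and 0.575 CPM (19 UMIs) in the NK cell-depleted library, a ratio of 27.9 (17.7 to 46.7). T-like cells were close to even. They had 17 and 14 UMIs, or 25.6 and 25.3 CPM, a ratio of 1.01 (0.470 to 2.22). They gave 73.7% of the *Fasl* UMIs that were left in the NK cell-depleted library. Another 23 control UMIs lay in an unnamed cluster of 31 control and 7 NK cell-depleted cells, where the depleted library had 0. That cluster mixed markers of several classes. Its summed markers stood at 20223 and 19424 CPM for monocytes/macrophages, 3410 and 79.7 CPM for NK cells and 1028 and 2902 CPM for T cells. Without NK-like and unnamed cells, 33 and 17 UMIs were left, a ratio of 2.20 (1.19 to 4.20). Of these, monocyte/macrophage-like cells held 8 and 2 and neutrophil-like cells 5 and 1. The summed level of 14 NK markers was 18.3 and 1.12 CPM in the first class and 214 and 3.60 CPM in the second. In T-like cells it was 387 and 132 CPM. The part of stray NK transcripts in these ratios, that of T-like cells included, was not tested.

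*Tnfsf10*, the other ligand of a death receptor, was sparse and had several sources. It had 153 control UMIs and 91 NK cell-depleted UMIs over all cells, or 4.96 and 2.75 CPM, a ratio of 1.80 (1.38 to 2.36). Monocyte/macrophage-like cells gave 60.1% of its control UMIs, T-like cells 15.03% and NK-like cells 14.4%. The level per class had another order. It was 34.7 CPM in T-like, 16.3 CPM in NK-like and 4.46 CPM in monocyte/macrophage-like cells of the control library. NK-like cells held both death ligands, but few single cells showed a UMI of each. Among the 276 NK-like cells with *Fasl*, 2.90% had *Tnfsf10*, against 3.35% of the others.

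In T-like cells *Tnfsf10* had 23 control and 7 NK cell-depleted UMIs, or 34.7 and 12.6 CPM, a ratio of 2.74 (1.14 to 7.57). Among cells called T-like one by one it had 17 and 5 UMIs and a ratio of 2.90 (1.03 to 10.1). Without NK-like, melanoma-like and unnamed cells the ratio was 1.35 (1.02 to 1.79), on 122 and 91 UMIs. In monocyte/macrophage-like cells the pooled levels of 4.46 and 3.75 CPM gave 1.19 (0.871 to 1.63), an interval that includes 1. Within clusters of that class, however, *Tnfsf10* was higher in the control library in 8 of the 9 clusters with at least 5 UMIs, beyond counting error in 3, and lower beyond counting error in 0. In cluster 4, led by the monocyte genes *Ly6c2* and *Plac8*, it stood at 17.9 and 8.36 CPM, a ratio of 2.14 (1.16 to 3.91). In cluster 7, led by *Ccl8* and *Gas6*, it stood at 15.8 and 5.67 CPM, a ratio of 2.80 (1.21 to 7.23). In cluster 1, led by *Ms4a7* and *Pf4*, it had 13 and 0 UMIs. The cluster sizes differed too, since cluster 4 held 204 control and 572 NK cell-depleted cells and cluster 1 held 644 and 203. Each cluster was also given the same weight in both libraries, its share of the cells of both together. The class then had a log2 ratio of 1.14 in place of 0.25.

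**Figure D2:**
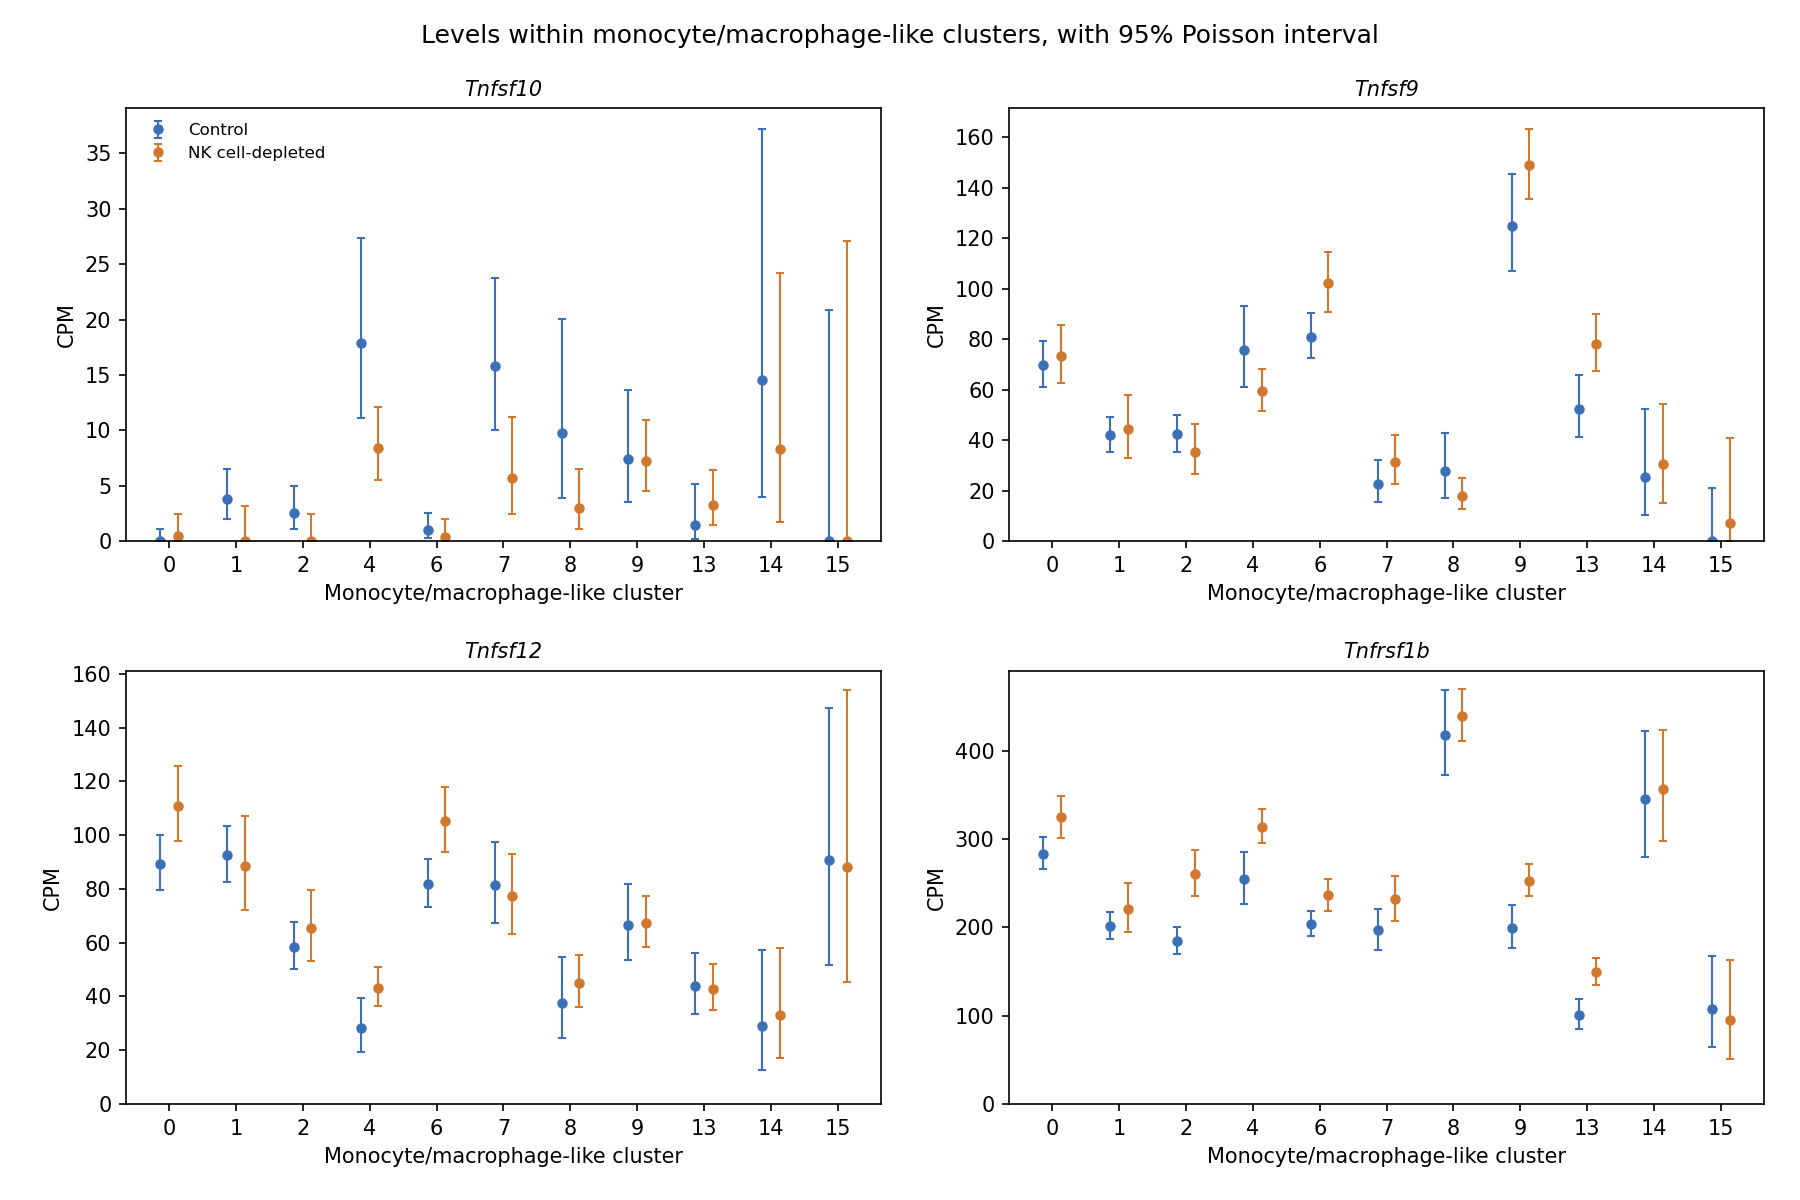
Levels of *Tnfsf10*, *Tnfsf9*, *Tnfsf12* and *Tnfrsf1b* in CPM in each monocyte/macrophage-like cluster with at least 50 cells per library. Points are libraries (control in blue, NK cell-depleted in orange) and bars are exact 95% Poisson intervals. *Tnfrsf1b* is lower in control in 10 of 11 clusters, and *Tnfsf10* is highest in control cluster 4 at 17.9 CPM.

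The RefSeq sequence around the start of each gene was searched for motifs of immune regulation. It was at hand for 7 of the 10 genes (GRCm38.p6, 250 bases before to 50 after the start). The motifs were the interferon-stimulated response element core (GAAA, any 2 bases, GAAA), the gamma-activated site TTCNNNGAA, a kappa B-type site (GGGA, any 4 bases, CC) and the T-box core GGTGTGA, on either strand. Of 32851 such windows, 3.44%, 8.30%, 20.7% and 3.98% held each in turn. Below are the windows of the pair of death ligands, the genes with a window that passed 1.5-fold over all cells, and of *Tnfrsf1b*, which carried 2 of the motifs. Capitals mark a match to any of the motifs.
Fasl (chr1:161788446-161788745, minus strand): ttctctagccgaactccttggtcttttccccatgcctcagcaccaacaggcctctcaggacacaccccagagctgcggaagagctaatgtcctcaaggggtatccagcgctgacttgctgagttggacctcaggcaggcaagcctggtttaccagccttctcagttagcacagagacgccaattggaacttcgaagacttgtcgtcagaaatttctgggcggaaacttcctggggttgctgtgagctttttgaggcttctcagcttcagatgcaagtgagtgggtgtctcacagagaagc
Tnfsf10 (chr3:27316827-27317126, plus strand): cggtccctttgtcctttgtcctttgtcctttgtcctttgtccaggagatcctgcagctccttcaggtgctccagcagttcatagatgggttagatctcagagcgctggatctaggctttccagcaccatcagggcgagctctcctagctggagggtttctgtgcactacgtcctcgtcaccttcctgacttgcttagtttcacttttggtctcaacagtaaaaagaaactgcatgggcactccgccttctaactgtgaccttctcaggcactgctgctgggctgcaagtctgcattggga
Tnfrsf1b (chr4:145246821-145247120, minus strand): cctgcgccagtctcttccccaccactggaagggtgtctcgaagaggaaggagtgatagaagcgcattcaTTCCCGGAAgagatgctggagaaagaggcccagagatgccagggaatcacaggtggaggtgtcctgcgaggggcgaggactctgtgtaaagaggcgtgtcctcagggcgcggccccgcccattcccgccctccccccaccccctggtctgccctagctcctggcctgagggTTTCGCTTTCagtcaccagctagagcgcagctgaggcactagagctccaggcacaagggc
The *Fasl* and *Tnfsf10* windows held 0 matches. The *Tnfrsf1b* window held TTCCCGGAA at base 70 and, on the opposite strand of the response element core, TTTCGCTTTC at base 241, counted from the 5′ end. A match is a description of letters and not a bound site. Of the other 5 windows, *Fas* and *Tnfrsf1a* held 1 gamma-activated site each, *Tnfsf14* held 1 kappa B-type site, and 1 of the 2 *Tnfsf13b* windows held GAAAGTGAAA.

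The TRAIL receptor *Tnfrsf10b* (GRCm38 chr14:69767472-69784411, plus strand) was found mainly in melanoma-like cells. It had 167 control and 420 NK cell-depleted UMIs there, which were 77.3% and 90.7% of its UMIs, and 51.4% and 61.3% of melanoma-like cells had a UMI. These cells were deep, with medians of 22277 and 25375 UMIs, and after thinning to 2000 UMIs the shares were 7.91% of 139 and 10.6% of 282 cells, with 34 and 33 shallower cells left out. T-like cells came next, at 15.1 and 34.3 CPM. Their thinned shares were 1.86% (0.386 to 5.35) of 161 and 6.29% (2.92 to 11.6) of 143 cells, and both intervals overlap those of melanoma-like cells (4.02 to 13.7 and 7.29 to 14.8). In monocyte/macrophage-like cells the thinned shares were 0.187% and 0.166%. Neutrophil-like cells had 0 UMIs in both libraries.

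Over all cells *Tnfrsf10b* was at 7.005 and 14.01 CPM, a ratio of 0.5001 (0.424 to 0.589). Under the authors' upper limits of 15000 UMIs and 4000 genes per cell, which remove deep cells, the log2 ratio was -0.38 in place of -0.998. Melanoma-like cells held a larger share of the UMIs of the NK cell-depleted library, and without them *Tnfrsf10b* had 49 and 43 UMIs and a ratio of 1.08 (0.701 to 1.66). Within melanoma-like cells it was at 37.6 and 51.9 CPM, a ratio of 0.724 (0.601 to 0.868) and a log2 ratio of -0.46. Added parental cells and tumor cells were not told apart in this class. The median gene of this class stood at -0.17 on the same scale. Nearly all counts came from cluster 12 of the class, at 38.2 and 52.4 CPM. The same upper limits left 20 *Tnfrsf10b* UMIs in melanoma-like cells. The other 2 death receptors of melanoma-like cells had intervals that include 1. *Fas* stood at 4.72 and 6.05 CPM (21 and 49 UMIs), a ratio of 0.780 (0.444 to 1.33). *Tnfrsf1a* stood at 32.8 and 38.3 CPM (146 and 310 UMIs), a ratio of 0.857 (0.699 to 1.05). Among melanoma-like cells with a *Fas* UMI, 82.4% (14 cells) and 70.3% (26 cells) also had one of *Tnfrsf10b*, against 48.1% and 60.1% of the others. The part of depth per cell in this was not tested.

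*Fas* was otherwise found in several leukocyte classes. Among classes with at least 50 cells per library it was highest in neutrophil-like cells, at 83.4 and 99.7 CPM, and in migratory DC-like cells, at 72.0 and 44.1 CPM, and the intervals of both ratios included 1. Monocyte/macrophage-like cells gave 268 and 294 of its 401 and 472 UMIs. In T-like cells it had 8 and 20 UMIs, or 12.1 and 36.1 CPM, a ratio of 0.334 (0.127 to 0.792). Among cells called T-like one by one the ratio was 0.384 (0.154 to 0.882). In the same class the interval of *Fasl* included 1, as given above, and the difference between the pair was not tested.

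The TNF receptors were spread over many classes. Among classes with at least 50 cells per library, both were highest in neutrophil-like cells. *Tnfrsf1a*, which carries a death domain, was at 322 and 340 CPM in neutrophil-like, 100.6 and 108 CPM in monocyte/macrophage-like and 75.0 and 92.4 CPM in cDC2-like cells. *Tnfrsf1b*, which lacks a death domain, was at 389 and 504 CPM in neutrophil-like, 217 and 272 CPM in monocyte/macrophage-like and 241 and 227 CPM in migratory DC-like cells. NK-like cells had 161 CPM of *Tnfrsf1b* and 37.0 CPM of *Tnfrsf1a*. T-like cells had 116 and 137 CPM of *Tnfrsf1b* and 15.1 and 9.02 CPM of *Tnfrsf1a*. In cDC2-like cells *Tnfrsf1b* was lower than in these lymphocyte classes, at 66.7 and 94.4 CPM. Melanoma-like cells differed from the leukocyte classes in *Tnfrsf1b*, at 8.10 and 9.51 CPM.

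*Tnfrsf1b* was lower in the control library in each of the large myeloid classes. The ratio was 0.795 (0.764 to 0.827) in monocyte/macrophage-like cells, on 4464 and 5599 UMIs. It was 0.770 (0.656 to 0.903) in neutrophil-like cells and 0.706 (0.572 to 0.869) in cDC2-like cells. Within monocyte/macrophage-like clusters it was lower in control in 10 of 11, beyond counting error in 7 and higher beyond counting error in 0. The highest was cluster 8, led by *Ace* and *Adgre4*, genes of patrolling monocytes, at 418 and 439 CPM. None of these class ratios passed 1.5-fold. *Tnfrsf1a* differed less, with a pooled ratio of 0.929 (0.875 to 0.987) in monocyte/macrophage-like cells. Most clusters went the other way, with *Tnfrsf1a* higher in control in 9 of 11 and lower in 2. In 0 of them was the difference beyond counting error.

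**Figure D3:**
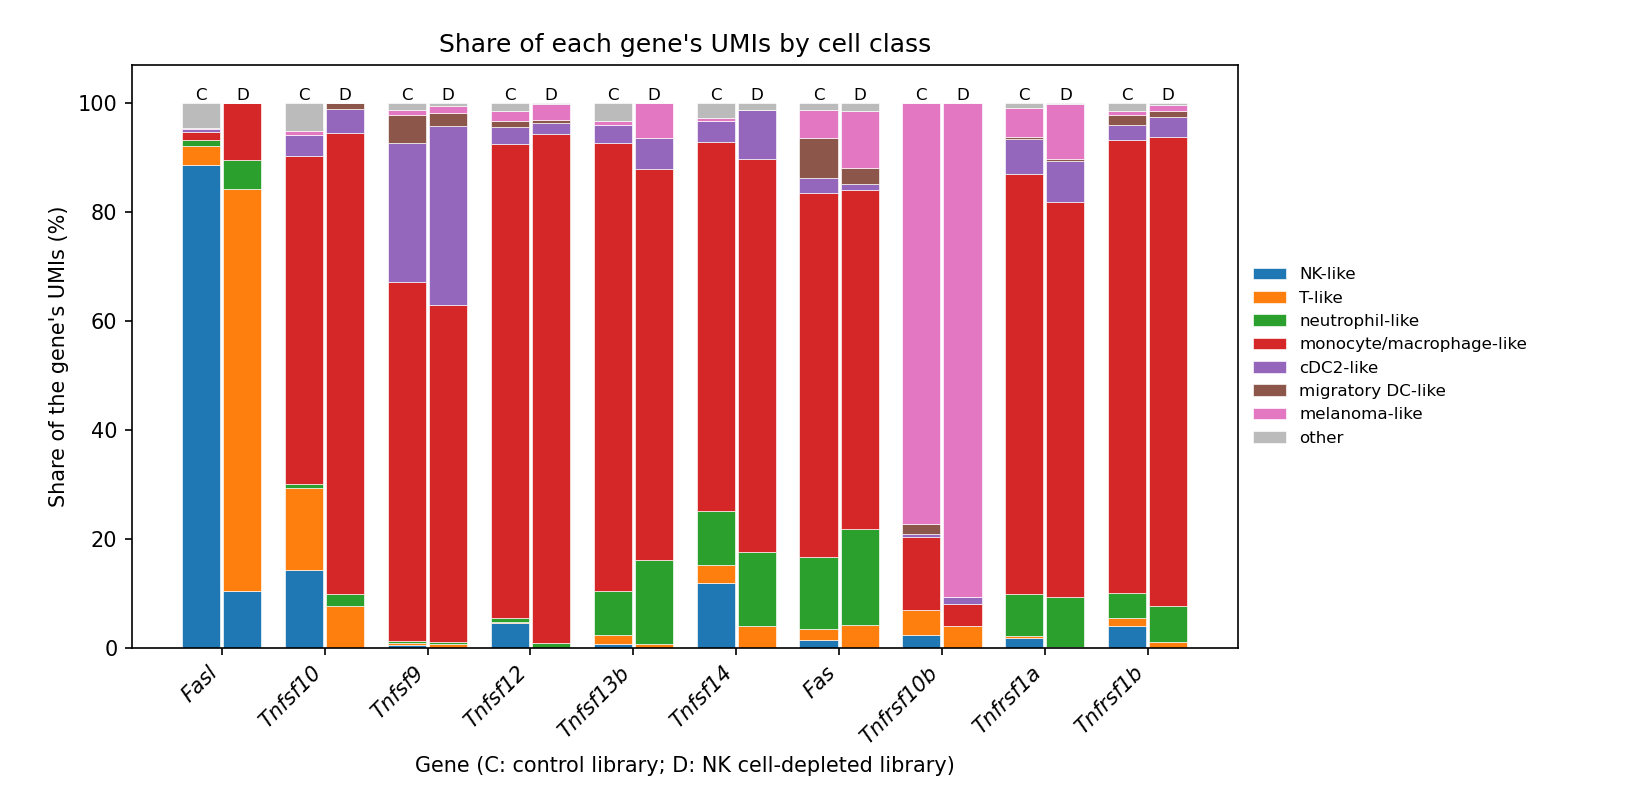
Share of each gene's UMIs (%) by cell class, for the control library (C) and the NK cell-depleted library (D), with B-like, eosinophil-like and unnamed cells as other. NK-like cells hold 88.7% of the control *Fasl* UMIs and melanoma-like cells hold 77.3% and 90.7% of the *Tnfrsf10b* UMIs, while monocyte/macrophage-like cells lead for most other genes.

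The costimulatory ligand *Tnfsf9* was a transcript of dendritic cells and macrophages. It was at 210 and 317 CPM in cDC2-like cells, 233 and 183 CPM in migratory DC-like cells and 59.7 and 72.9 CPM in monocyte/macrophage-like cells. In cDC2-like cells it had 478 and 796 UMIs, a ratio of 0.661 (0.589 to 0.742), and 0.667 (0.590 to 0.753) among cells called cDC2-like one by one. In monocyte/macrophage-like cells the ratio was 0.820 (0.759 to 0.884), and within their clusters it was lower in control beyond counting error in 2 and higher in 0. Giving each cluster the same weight in both libraries gave a log2 ratio of -0.09 in place of -0.29. Cluster 9, led by *Lyve1*, was the highest, at 125 and 149 CPM. In migratory DC-like cells the ratio was 1.28 (0.912 to 1.80), an interval that includes 1. T-like cells had 8 and 19 UMIs and a ratio of 0.352 (0.133 to 0.841), which rested on few cells. Among cells called T-like one by one it had 7 and 7 UMIs and a ratio of 0.853 (0.255 to 2.85).

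*Tnfrsf9*, the receptor of 4-1BBL and an activation marker of lymphocytes, went the other way. It was at 31.7 and 9.26 CPM over all cells (977 and 306 UMIs), a ratio of 3.42 (3.01 to 3.90). Control NK-like cells had 172 CPM. T-like cells had 164 and 61.3 CPM, a ratio of 2.68 (1.81 to 4.06). Monocyte/macrophage-like cells had 24.8 and 9.58 CPM, a ratio of 2.59 (2.19 to 3.06), so that the receptor was higher in control in classes in which the ligand was not.

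*Tnfsf12* was led by monocyte/macrophage-like cells, at 72.6 and 69.7 CPM, a ratio of 1.04 (0.968 to 1.12), and by NK-like cells, at 58.4 CPM. Over all cells its ratio was 1.203 (1.12 to 1.29), and without melanoma-like cells it was 1.08 (1.002 to 1.15). cDC2-like cells had 55 and 32 UMIs, or 24.1 and 12.7 CPM, a ratio of 1.89 (1.20 to 3.02). Among cells called cDC2-like one by one the ratio was 1.30 (0.842 to 2.01), on 52 and 40 UMIs. That set leaves out cells called type 1 and cells without a call. It also takes in 58 cells of monocyte/macrophage-like clusters and 8 of the migratory DC-like class. The gene lies at GRCm38 chr11:69686250-69695849 on the minus strand, where the read-through gene *Tnfsfm13* overlaps it on the same strand, so some of its reads could have been left uncounted or placed there. *Fas* likewise overlaps *Gm27818* on its own strand. *Tnfsf12*, *Tnfsf9* and *Tnfsf13b* have antisense partners, *Tnfsf13os*, *Gm11110* and *Gm44789* in turn. Whether the counting used strand is not given in the sources used here, and without it the reads of such partners cannot be told apart. The TWEAK receptor *Tnfrsf12a* was at 202 and 208 CPM in melanoma-like cells and at 7.42 and 8.42 CPM in monocyte/macrophage-like cells. The ratio of *Tnfrsf12a* over all cells was 0.611 (0.567 to 0.659). Melanoma-like cells held 14.4% and 24.5% of all UMIs, and the part of this share in the ratio was not tested.

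*Tnfsf13b*, which supports B cell survival, was sparse, with 124 UMIs in each library. It was highest in neutrophil-like cells, at 15.7 and 22.8 CPM, a ratio of 0.689 (0.286 to 1.56), while monocyte/macrophage-like cells had 4.95 and 4.33 CPM. Of its receptors, *Tnfrsf13c* was led by B-like cells, at 260 and 313 CPM, and *Tnfrsf13b* was at 171 and 190 CPM there and at 76.7 and 76.1 CPM in monocyte/macrophage-like cells. *Tnfrsf17* had 2 and 4 UMIs. *Tnfsf14* had 211 and 222 UMIs, a ratio of 1.02 (0.840 to 1.24), and, among classes with at least 50 cells, was led by neutrophil-like cells, at 33.03 and 36.0 CPM, and NK-like cells, at 18.5 CPM. Of its receptors, *Ltbr* was at 48.8 and 49.0 CPM in monocyte/macrophage-like and at 30.6 and 32.4 CPM in melanoma-like cells, and *Tnfrsf14* had 63 and 66 UMIs over all cells.

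Counted over the 10 genes, 3 passed 1.5-fold between the libraries over all cells, *Fasl* and *Tnfsf10* higher in control and *Tnfrsf10b* lower. Of 13541 genes with at least 20 UMIs, 17.6% passed the same fold, 7.64% higher and 9.98% lower. Without NK-like cells the count was again 3 of 10, against 16.3% of all genes, 6.24% higher and 10.1% lower. In monocyte/macrophage-like cells 1 of 9 passed, against 11.7% of all genes (7.86% higher and 3.84% lower). It was *Tnfrsf10b*, at 29 and 18 UMIs and a ratio of 1.61 (0.863 to 3.07). In melanoma-like cells 0 of 6 passed, against 10.7% of all genes (2.88% higher and 7.85% lower). In neutrophil-like cells 0 of 6 passed, against 20.9% (10.7% higher and 10.2% lower).

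In T-like cells 4 of 6 passed, *Tnfsf10* higher and *Fas*, *Tnfrsf10b* and *Tnfsf9* lower, against 23.5% of all genes (12.7% higher and 10.8% lower). T-like *Tnfrsf10b* had 10 and 19 UMIs and a ratio of 0.440 (0.183 to 0.993). Of the 19, 7 lay in 7 cells called one by one as type 2 innate lymphoid cells, and cells called T-like gave 0.569 (0.202 to 1.51). The summed level of 18 melanoma markers in T-like cells was 66.3 and 74.0 CPM, and its part in this was not tested. In cDC2-like cells 3 of 5 passed, *Tnfsf12* higher and *Tnfsf9* and *Tnfsf14* lower, against 16.2% (8.84% higher and 7.31% lower). cDC2-like *Tnfsf14* had 8 and 20 UMIs and a ratio of 0.440 (0.168 to 1.04). In migratory DC-like cells 2 of 4 passed, *Fas* and *Tnfsf12*, both higher with intervals that include 1, against 27.7% (10.2% higher and 17.5% lower). The median log2 ratio of the 10 genes was -0.03 over all cells, beside -0.06 for all genes. In monocyte/macrophage-like cells that of the 9 genes was -0.11, beside -0.01.

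**Figure D4:**
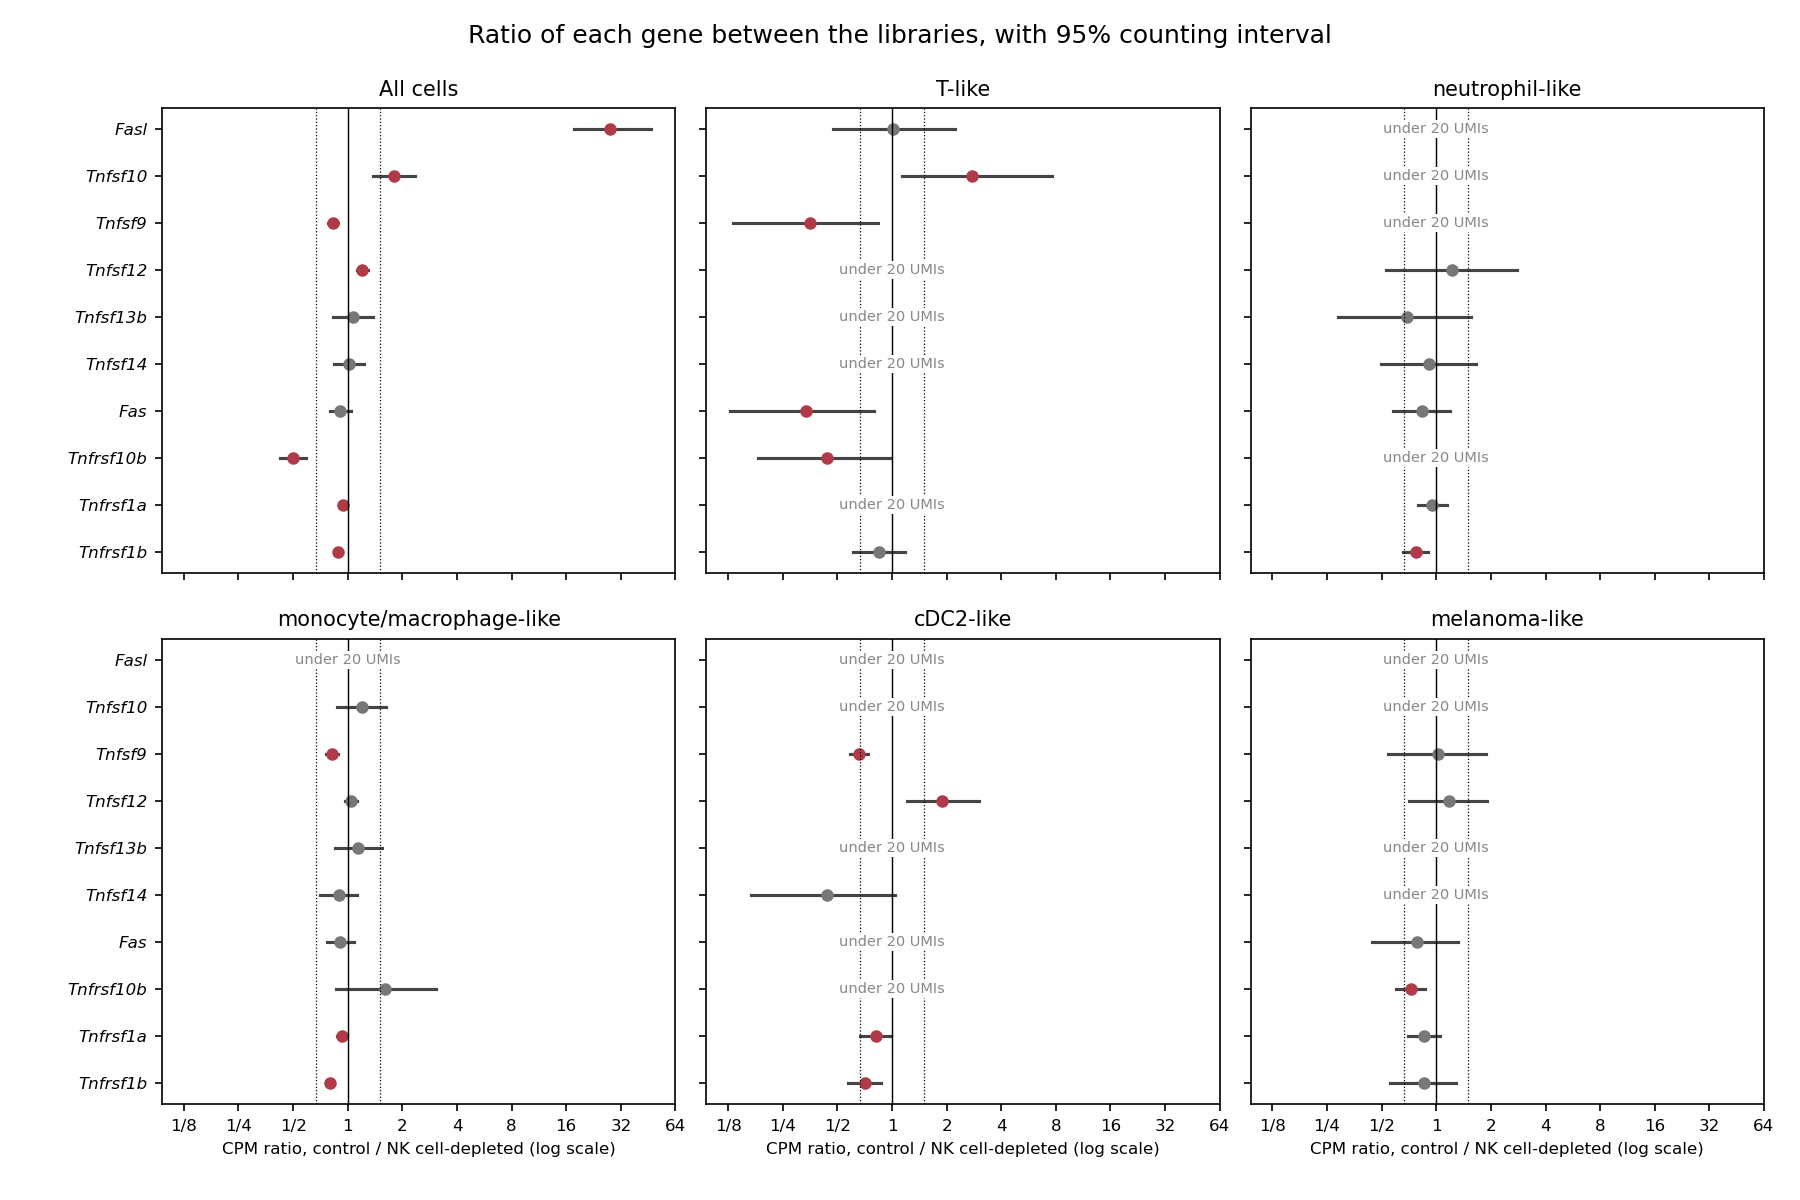
Ratio of CPM, control over NK cell-depleted, for each gene over all cells and in 5 classes, on a log axis. Bars are 95% counting intervals, red points have an interval that excludes 1, and dotted lines mark 1.5-fold. *Fasl* stands at 27.9 over all cells and at 1.01 in T-like cells.

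Other genes of the family and of its signaling were counted in the same way. Over all cells 7 of 11 other ligands with at least 20 UMIs passed 1.5-fold, 5 higher and 2 lower in control, beside 17.6% of all genes. Without NK-like cells 8 of 11 passed, 4 higher and 4 lower, beside 16.3% of all genes. Over all cells *Tnfsf8* (CD30L) stood at 1.82 (1.47 to 2.25) and *Tnfsf18* (GITRL) at 0.378 (0.178 to 0.749). Of 20 other receptors 9 passed, 6 higher and 3 lower, and without NK-like cells 7 passed, 4 higher and 3 lower. *Cd27* stood at 2.87 (2.39 to 3.45) and *Tnfrsf4* (OX40), a costimulatory receptor of T cells, at 1.99 (1.57 to 2.53). *Eda2r*, a receptor of the p53 response, stood at 0.471 (0.397 to 0.558) and was at 44.1 and 55.6 CPM in melanoma-like cells. The part of the melanoma-like share of all UMIs (14.4% and 24.5%) in the *Eda2r* ratio was not tested. Of the signaling lists, 0 of 24 genes of receptor-proximal death and survival signaling and 0 of 3 ectodomain proteases passed over all cells.

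Within monocyte/macrophage-like cells 11.7% of all genes passed, 7.86% higher and 3.84% lower. Of 5 other ligands 4 passed, 3 higher and 1 lower. Of 17 other receptors 4 were higher, and of 24 signaling genes 1 was lower. That gene was *Tnfaip3*, which encodes the A20 protein that limits TNF signaling. It had 3909 and 6768 UMIs, or 190 and 329 CPM, a ratio of 0.576 (0.554 to 0.599). The same gene stood at 213 and 442 CPM in cDC2-like cells, a ratio of 0.483 (0.433 to 0.537). *Tnf* itself, the ligand of *Tnfrsf1a* and *Tnfrsf1b*, was even over all cells, at 53.6 and 54.9 CPM, and at 61.1 and 69.9 CPM in monocyte/macrophage-like cells. In neutrophil-like cells it was higher in control, at 197 and 97.3 CPM, a ratio of 2.02 (1.52 to 2.71), and in T-like cells at 76.8 and 30.7 CPM, a ratio of 2.51 (1.42 to 4.63). In cDC2-like cells it was lower, at 63.2 and 100 CPM, a ratio of 0.629 (0.509 to 0.775). *Lta*, which binds the same receptors, had 29 and 17 UMIs. *Cd40* had 953 and 1047 UMIs and its ligand *Cd40lg*, a T cell help signal, 42 and 27 UMIs.

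**Figure D5:**
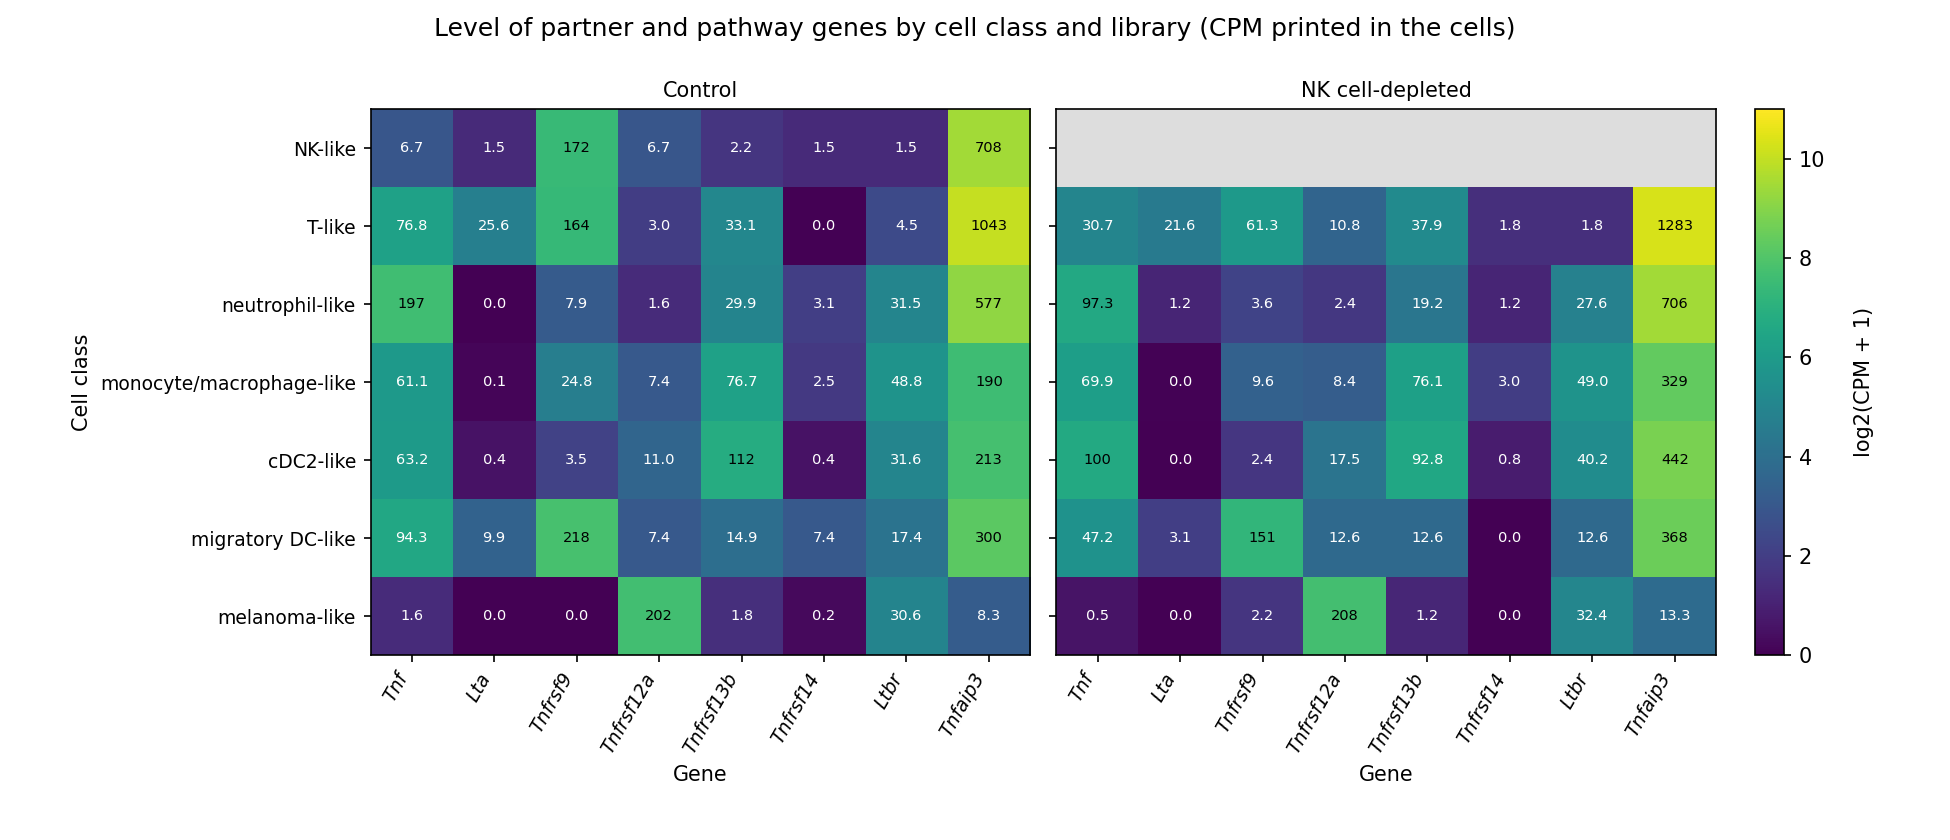
Level of partner and pathway genes by cell class in the control library (left) and the NK cell-depleted library (right), as color on a log2(CPM + 1) scale with CPM printed. *Tnfrsf12a* stands at 202 and 208 CPM in melanoma-like cells, *Tnfrsf9* at 164 and 61.3 CPM in T-like cells.

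Genes with the most similar pattern were ranked by Pearson r of log2(CPM + 10) over 15 pairs of class and library, among 10549 genes, as a description over few points that share libraries. For *Fasl* they were *Tbx21* (r = 0.994), *Nkg7* (0.985) and *Klrc1* (0.984). For *Tnfsf10* they were *Trdc* (0.951), *Gprin3* (0.939) and *Cd28* (0.936). For *Tnfrsf10b* they were *Pard6g* (0.962), *Itga7* (0.959) and *Tgfbr3* (0.952). For *Tnfsf9* they were *Vdr* (0.951), *Dapk1* (0.943) and *Rasa4* (0.935). For *Tnfsf13b* they were *Tlr6* (0.989), *Kcnj2* (0.984) and *Mmp8* (0.968), and for *Tnfsf14* the first was *Arap3* (0.967). The first genes were *Fbxl15* (0.912) for *Tnfsf12*, *Aqp9* (0.906) for *Fas*, *Prdx5* (0.932) for *Tnfrsf1a* and *Arrb2* (0.927) for *Tnfrsf1b*.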

How the data were processed

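Leukocytes were profiled by droplet 3′ single-cell sequencing (10x, v3 chemistry). The authors deposited, per library, a matrix of UMI counts after cell calling. The matrix header names Cell Ranger 3.0.2, and the processing notes name mm10. The deposited table of normalized values was not used here.

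Groups came from the sample titles. Cells were clustered anew on 2000 variable genes and 15 principal components (scanpy 1.11.5, leidenalg 0.10.2, resolution 1). The 10 genes, the context lists and genes matching a list of interferon symbol patterns were left out of clustering, which removed 173 genes. Clusters were named ("-like") when at least 3 markers ranked among their top 50 genes, with a further round for monocyte/macrophage clusters, a rule set after the clusters were seen. Scrublet called 1.20% and 0.123% of cells as doublets, too few in the NK cell-depleted library to have worked, and cells it marked were kept. UMIs were summed per class and library. Log2 ratios add 0.5 UMI to each sum. Shares carry exact Clopper-Pearson, sums exact Poisson and ratios exact conditional binomial intervals. With 1 library per group no test was run. A gene was counted past 1.5-fold with at least 20 UMIs over both libraries. The ratio and its interval were tested on simulated data.

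All 10 genes, context genes past 1.5-fold with an interval excluding 1 (at most 5 per list and class) and binding partners could be named, of which a selection is given. The genes and lists were chosen with earlier results of these data known. Alternatives covered cell limits, cell calling, cluster resolution and weights, depth, doublets, scaling, the count minimum and the fold. Ratios in cells called one by one as T-like or cDC2-like, and the removal of whole classes, were added after seeing the data. Positions are from GENCODE M21 on GRCm38, the assembly of mm10.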

Additional observations from a re-analysis of the deposited data

Results flagged for a closer look

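*Tnfsf12* was marked because its ratio between the libraries pointed in opposite directions in different cells, each beyond counting error. The log2 ratio was -0.61 in monocyte/macrophage-like cluster 4, -0.37 in cluster 6 and -0.31 in cluster 0, that is, lower in control. It was 0.91 in cDC2-like cells, higher in control. The difference between these cells was not tested, and with 1 library per group it has no replicate check. In the dendritic cells the interval included 1 when cells were called one by one, a set that also takes in some cells of monocyte/macrophage-like clusters.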

How the results depend on the processing

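No paired analysis was possible because each group has 1 library. Of 215 recomputed log2 ratios of the genes over all cells, monocyte/macrophage-like and melanoma-like cells, 171 stayed within the counting interval, 42 moved outside it and 2 reversed. Those were *Tnfrsf10b* over all cells, at -0.998, which stood at 0.11 without melanoma-like cells and at 0.043 without NK-like, melanoma-like and unnamed cells, with intervals that include equality. The count of 3 genes past 1.5-fold over all cells became 1 without NK-like, melanoma-like and unnamed cells and 1 at 2-fold. The count of 1 in monocyte/macrophage-like cells became 0 under the authors' upper limits, 0 after thinning and 0 at 2-fold, and 2 with at least 5 UMIs per gene. The count of 0 in melanoma-like cells became 2 when each cluster had the same weight in both libraries. It became 2 without the 5 cells per library richest in the gene and 1 without called doublets. With stricter cell quality it was 2, and with at least 5 UMIs it was 1. The share of control *Fasl* UMIs in NK-like cells, 88.7%, was 93.9% without called doublets. Context genes past 1.5-fold over all cells went from 16 to 10 under the upper limits and to 5 at 2-fold, and those in monocyte/macrophage-like cells from 9 to 5 at 2-fold. The causes of these moves were not tested, apart from the smaller sets of cells or stricter folds that some settings impose. Sparse genes such as *Tnfsf10* and *Tnfsf13b* in single classes are limited by their counts, and the upper limits remove most melanoma-like UMIs.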

Other observations

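Cells left out by the quality filter numbered 611 in the control library and 677 in the NK cell-depleted library, of which 606 and 675 exceeded the mitochondrial limit. They held 16 and 2 *Fasl* UMIs, 8 and 24 *Tnfrsf10b* UMIs and 3 and 3 *Tnfsf10* UMIs.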
